A study of Mus musculus with 18 samples.

Results

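The comparison described here is between 2 groups of vehicle-treated AML12 cells that were harvested at different times after circadian synchronization. AML12 is a mouse hepatocyte cell line. The members were chosen by the sample titles: 3 libraries of cells given the solvent DMSO from T24 to T30 (a 6 h exposure, harvested at T30) and 3 libraries of cells given DMSO from T0 to T24 (a 24 h exposure, harvested at T24), 6 of the 18 libraries in the series. Libraries were paired by replicate number. The remaining libraries are DMSO from T14 to T20 and pemafibrate, an agonist of the nuclear receptor PPARα, over the same 3 windows. The T30 and T24 groups differ in harvest time, in the length and start of DMSO exposure and in the table their values come from, and these cannot be told apart in this design. The study's stated contrast is day-like against night-like drug exposure, and the vehicle cells are its controls. They also show what the synchronized cells do without the drug. How the cells were synchronized is not given in the sources used here, and the labels do not state whether the replicates are independent cultures. The p-values therefore describe the spread among the libraries, which may be technical.

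As background, the mammalian clock is a transcriptional feedback loop. BMAL1 (encoded by Arntl) and CLOCK bind E-boxes and activate the period and cryptochrome genes, whose proteins inhibit them in turn. The same pair activates Nr1d1 and Nr1d2, which encode the REV-ERB repressors, and REV-ERBs repress Arntl through ROR elements, so that Arntl and Nr1d1 transcripts run in opposite phase. Dbp, Tef and Hlf encode activators of the PAR bZIP family, which bind D-boxes and pass the rhythm on to output genes. The repressor NFIL3 competes for the same sites. Hepatocytes use this system to time lipid, sterol and xenobiotic metabolism.

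The regulatory letters named in that loop can be seen in some of the promoters concerned. The 250 bases upstream of the transcription start were read from RefSeq promoters of the GRCm38.p6 build and searched on both strands for the E-box CACGTG, the D-box TTATGTAA, the core letters of ROR elements (AGGTCA) and, for the mitotic genes described further on, the CCAAT box (CCAAT) and the cell cycle homology region, or CHR (TTTGAA). RefSeq starts were matched for 16 of 19 genes. These were the tested clock activator, REV-ERB and ROR, period and cryptochrome and PAR bZIP genes, with Bhlhe40, Bhlhe41 and Zfp57. An E-box was found upstream of 4 of the 16, Per1, Tef, Bhlhe41 and Cry1, and a D-box upstream of Per3 alone. The ROR core was found upstream of 5 of the 16 (31.2%), and not in the windows of Arntl. The shares of all 32851 upstream windows in that table that hold these letters are 6.02% for the E-box, 0.819% for the D-box and 14% for the ROR core. A gene was counted if any of its starts matched, and several of the 16 genes have more than 1 start. Shares of genes are therefore not like for like with these shares of single windows. The windows upstream of Nr1d1 and Dbp hold neither an E-box nor a D-box, which says nothing about sites elsewhere in these genes. A match is a description of the letters, not of binding. The stretches are given 5′ to 3′ in the direction of the gene, with the motif in capitals. Of the genes with an E-box, Per1, Tef and Bhlhe41 were lower at T30 and Cry1 was higher. Most matched genes without an E-box were lower as well, so no link between motif and direction is drawn.
Per1, chr11:69098768-69098803, plus strand: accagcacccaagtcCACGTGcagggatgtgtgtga
Tef, first start, chr15:81802531-81802566, plus strand: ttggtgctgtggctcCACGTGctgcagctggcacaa
Tef, second start, chr15:81811261-81811296, plus strand: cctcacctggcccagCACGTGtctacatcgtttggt
Bhlhe41, chr6:145865553-145865588, minus strand: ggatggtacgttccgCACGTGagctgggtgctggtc
Cry1, chr10:85185094-85185129, minus strand: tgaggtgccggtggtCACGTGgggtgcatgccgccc
Per3, chr4:151044801-151044885, minus strand, with both D-boxes: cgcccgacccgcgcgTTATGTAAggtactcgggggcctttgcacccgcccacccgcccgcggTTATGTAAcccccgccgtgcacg

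The values are the authors' normalized signal per gene. Totals ran from 31461977 to 33623568 over the 6 libraries, and read depth before normalization was not recoverable. The T24 and T30 tables were normalized separately. The median log2 difference between them over the 13285 genes with a mean signal of at least 10 was 0.0401, and this constant was subtracted before every fold change, so all changes are relative to the median gene. Hepatocyte genes were present, among them albumin (Alb, mean signal 4306 at T24 and 4878 at T30) and Hnf4a, a defining hepatocyte transcription factor (6813 and 8011). Apoa1 and Ahsg were below the minimum level. Markers of cholangiocytes or progenitors were also present, with Spp1 at 44090 and 42270, Krt19, Krt7 and Sox9 above the minimum and Epcam below it. Leukocyte, endothelial and stellate or fibroblast markers were low. The defining genes Adgre1, Clec4f and Cd3e (Kupffer and T cells), Lyve1 (sinusoidal endothelium) and Lrat (stellate cells) were listed at 0 in all 6 libraries. The summed signal of the 8 stellate or fibroblast markers was 94.3 to 133.1 at T24 and 105.1 to 207.2 at T30, that of the 6 leukocyte markers 252.3 to 275.9 and 246.2 to 338.3, and that of the 5 endothelial markers 14.8 to 32.4 and 11.7 to 16.6. In bulk RNA fewer cells of a kind and less RNA per cell cannot be told apart.

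In the clock, the REV-ERB genes, Dbp and the period genes were lower at T30 than at T24, Arntl and Cry1 were higher, and Cry2 was lower. In the paired fit by limma, 4 of 13285 genes passed the threshold of adjusted p = 0.05 (0.0301% of those tested), all of them lower at T30. They were the core clock genes Nr1d1 and Nr1d2, the clock output gene Dbp, and Zfp57, a zinc finger protein that maintains imprinting. No gene passed in the other direction, although 910 genes were higher and 1326 lower at an unadjusted p under 0.05, where 664 in all would fall by chance.

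Nr1d1 (ENSMUSG00000020889), which encodes REV-ERBα, had a signal of 1911, 1580 and 1864 in the T24 libraries of replicates 1, 2 and 3, and of 679.2, 614.8 and 736.5 at T30. Every T30 library lay below every T24 library. The log2 fold change was −1.44 ± 0.08 (SE of the paired fit, 95% interval −1.62 to −1.25), a 2.71-fold fall, with adjusted p = 0.0057. Nr1d2 (ENSMUSG00000021775), which encodes REV-ERBβ, went from 3581, 2722 and 2907 to 1993, 1560 and 1870. The groups did not overlap, and the log2 fold change was −0.80 ± 0.07 (1.74-fold lower, adjusted p = 0.04999).

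Dbp (ENSMUSG00000059824) had the largest change of the clock genes. Its signal was 1482, 1358 and 999.2 at T24 and 234.9, 416.1 and 292.4 at T30, with no overlap. The log2 fold change was −2.08 ± 0.19 (95% interval −2.52 to −1.64), a 4.23-fold fall with adjusted p = 0.04999. Zfp57 (ENSMUSG00000036036) went from 2501, 1892 and 2007 to 1587, 1113 and 1132, again without overlap, with a log2 fold change of −0.79 ± 0.07 (adjusted p = 0.04999). Nr1d2, Dbp and Zfp57 share 1 adjusted p that lies just inside the threshold: without centring between the tables it was 0.056, and with trimmed mean centring 0.051, while the fold changes moved by at most 0.04 on the log2 scale. Without the replicate block Nr1d1 still passed (0.015) and Dbp (0.071), Nr1d2 (0.511) and Zfp57 (0.690) did not, and without the variance trend all 4 calls, Nr1d1 included, were lost (adjusted p = 0.294). Without replicate 3 the calls of Nr1d2 (adjusted p = 0.068) and Zfp57 (0.087) were lost, while Nr1d1 and Dbp passed without any 1 of the 3 replicates. Fits with a replicate left out have fewer pairs and rest more on the spread that limma shares over genes. Dbp had a far smaller limma adjusted p without replicate 2 (4.1e-14) than with all pairs. Passing in such fits is therefore no measure of robustness.

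The other core clock genes did not pass the paired test, although most had groups that did not overlap. Over all genes tested, non-overlap at this n occurred upward for 5.51% and downward for 8.03%. Arntl, which encodes BMAL1, was higher at T30 but did not pass. Its signal was 194.1, 264.2 and 290.0 at T24 and 578.3, 594.2 and 476.3 at T30, a log2 fold change of 1.11 ± 0.17 (95% interval 0.716 to 1.504, adjusted p = 0.102). All 3 T30 libraries were above all T24 libraries, and the pairs of replicates 1, 2 and 3 differed by 1.53, 1.13 and 0.67. Clock, which encodes its partner, was nearly flat by comparison, at 0.22 ± 0.07 (adjusted p = 0.221) with overlapping groups. Arntl2, a relative of Arntl, was low and uneven, at 68.3, 18.2 and 23.3 at T24 and 25.1, 29.5 and 18.03 at T30. Npas2, which can stand in for CLOCK, was below the minimum level.

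Among the repressors of the loop, the 3 period genes and Cry2 were lower at T30 in every pair. Per1 had 968.0, 719.3 and 570.8 at T24 and 511.2, 362.9 and 387.3 at T30, a log2 fold change of −0.86 ± 0.11 (adjusted p = 0.102). Per3 was at −0.91 ± 0.15 (adjusted p = 0.119), Per2 at −0.62 ± 0.14 (adjusted p = 0.146) and Cry2 at −0.47 ± 0.10 (adjusted p = 0.146). None of these 4 genes had overlapping groups. Cry1, the cryptochrome known to peak later than the period genes, went the other way, from 377.0, 378.3 and 456.5 to 695.1, 590.0 and 525.8. Its groups did not overlap either, and its log2 fold change was 0.53 ± 0.14 (95% interval 0.20 to 0.87, adjusted p = 0.170). The size of the Cry1 difference varied among pairs, at 0.84, 0.60 and 0.16 for replicates 1, 2 and 3.

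The output factors also differed in both directions. Tef, the PAR bZIP relative of Dbp, was lower in all 3 pairs (4674, 3727 and 3374 at T24, 2448, 2477 and 2557 at T30, log2 fold change −0.68 ± 0.11, adjusted p = 0.103). Nfil3, the repressor that competes for the same D-boxes, was higher in all 3 pairs (526.7, 777.7 and 826.4 at T24, 925.8, 1018 and 1235 at T30, log2 fold change 0.55 ± 0.10, adjusted p = 0.135). Hlf was below the minimum level. Bhlhe40 and Bhlhe41, E-box repressors also called DEC1 and DEC2, were at −0.52 ± 0.08 and −0.72 ± 0.10 (both adjusted p = 0.102), without overlap. Of the REV-ERB antagonists, Rora had 759.6, 626.8 and 663.8 at T24 and 678.2, 664.5 and 713.9 at T30 and overlapped, and Rorb was at −0.08 ± 0.11 (adjusted p = 0.734). Among 17 tested genes of the wider list of clock outputs, 7 were higher and 10 lower, with a median of −0.15, and none passed the test. Nampt, an enzyme of NAD synthesis, was at 0.22 ± 0.07 and the cold-inducible Rbm3 at 0.27 ± 0.08, both without overlap. Wee1, the mitotic kinase, was at −0.14 ± 0.08 with overlapping groups.

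**Figure D1:**
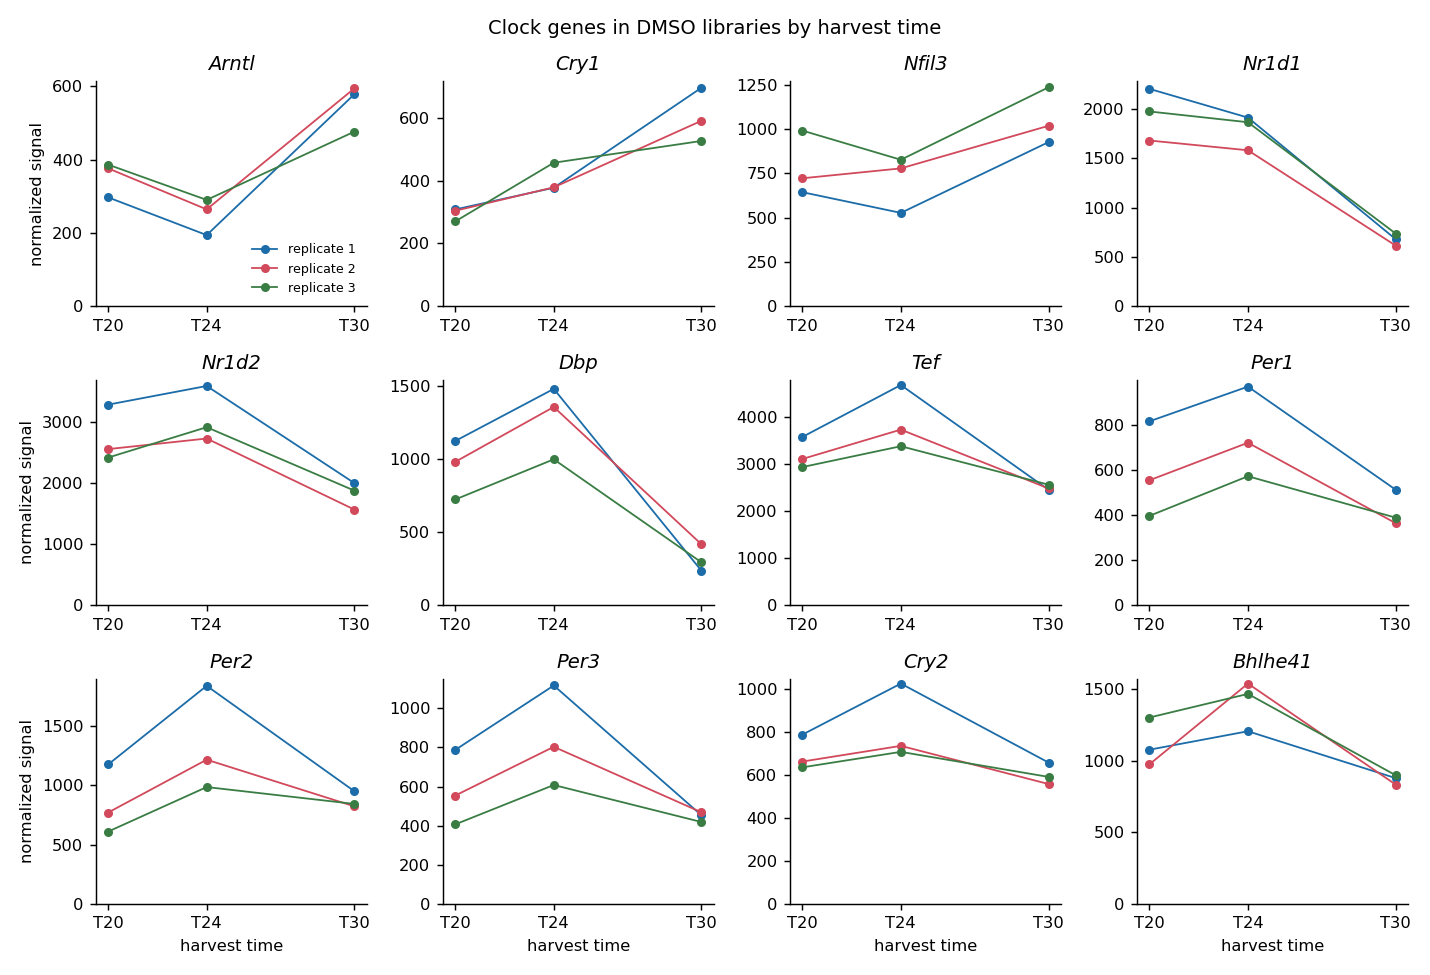
Normalized signal (vertical axis, from 0) of 12 clock genes in the 9 DMSO libraries by harvest time (horizontal axis), with 1 line per replicate number. Nr1d1 falls from 1580 to 1911 at T24 to 614.8 to 736.5 at T30, while Arntl goes from 194.1 to 290.0 up to 476.3 to 594.2. The 3 harvest times come from tables normalized separately.

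The DMSO libraries harvested at T20 stand beside these, with the same 6 h exposure as the T30 cells but values from another separately normalized table. Nr1d1 had 2202, 1679 and 1973 at T20, close to its T24 values and far above those at T30. Dbp had 1125, 982.0 and 723.8, Arntl 296.9, 376.0 and 386.2 and Cry1 308.0, 303.8 and 270.0. For Nr1d1, Dbp, Arntl and Cry1 the T20 libraries, which had the shorter exposure, thus lay on the T24 side of every T30 library. Nr1d2, at 3276, 2549 and 2411 at T20, also lay above every T30 library. This did not hold for the period genes: Per1 had 814.3, 553.1 and 395.2 at T20 and Per3 787.6, 554.0 and 406.5, which overlapped the T30 values in both cases. Nor did it hold for the called gene Zfp57, which had 2775, 1243 and 1393 at T20, overlapping 1587, 1113 and 1132 at T30. The plot of clock genes by harvest time shows the 3 times together.

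The paired fit of 6 libraries has few degrees of freedom, and fits that share 1 estimate of the spread over more libraries called far more genes. With the 9 DMSO libraries limma called 428 genes, 127 higher (0.958% of those tested) and 301 lower (2.27%). With all 18 libraries it called 1663 genes, 678 higher (5.11%) and 985 lower (7.43%). In that fit the vehicle and drug-treated members of each replicate and harvest counted as separate observations. Such members could be nearly alike. Egr1 at T30 had 1931, 1109 and 626.8 with vehicle and 1931, 1167 and 609 with pemafibrate. The spread estimated from 18 libraries may therefore be too small, and the count of 1663 too high. The counts of these fits also depended on single replicates. With 9 libraries the count was 738 without replicate 1, 1 without replicate 2 and 3 without replicate 3, and with 18 libraries it was 1173, 26 and 607. With 6 libraries it was 837, 163 and 4. The calls of the 9-library fit are given below as a measure of which genes stood nearest to the threshold, not as separate evidence, since they use the same T24 and T30 libraries. In it, Arntl and Tef (adjusted p = 0.021), Per1 (0.022), Per3 (0.028), Nfil3 (0.031), Cry2 (0.034) and Per2 (0.045) passed and Cry1 did not (adjusted p = 0.056). That is 1 gene higher and 2 lower of 3 tested PAR bZIP genes and 4 lower of 5 period and cryptochrome genes.

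Mitotic genes were higher at T30. Each of the 22 genes of the G2/M list, which act in spindle assembly, chromosome segregation and entry into mitosis, had a positive fold change (of all genes tested, 50% did), with a median of 0.39 on the log2 scale and a range of 0.22 to 0.55. All but Cdk1 were higher in all 3 pairs, which was the case for 20.4% of all genes. No G2/M gene passed the paired test, and 11 passed in the 9-library fit (0.958% of all genes did so upward). In the 18-library fit, whose calls may be too many, 18 passed (5.11% of all genes did so upward). Cdc25c, the phosphatase that activates CDK1, had 215.2, 238.9 and 327.3 at T24 and 298.5, 379.7 and 506.3 at T30 (log2 fold change 0.55 ± 0.11, adjusted p = 0.141). Every pair was higher by a like factor, but the groups overlapped, because replicate 3 was high at both times. The kinetochore genes Cenpf and Bub1b were at 0.45 ± 0.08 (adjusted p = 0.119) and 0.46 ± 0.09 (adjusted p = 0.135), and the mitotic kinase Aurka at 0.42 ± 0.09 (adjusted p = 0.145). None of the 22 genes had groups without overlap, so the difference is visible within pairs only.

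The size of the mitotic difference depended on the pair. The median over the 22 genes was 0.61 in the pair of replicate 1, 0.33 in replicate 2 and 0.20 in replicate 3. In the pemafibrate libraries at the same harvest times all 22 genes were higher as well, with a median of 0.28. The G1/S and replication list went the other way for most members: 17 of 22 genes were lower, with a median of −0.11, and none passed. Cdt1, which licenses replication origins, was at −0.36 ± 0.08 (adjusted p = 0.145), with 2176, 2057 and 2362 at T24 and 1901, 1530 and 1876 at T30. Its groups did not overlap. E2f1, the transcription factor of the S-phase program, was at −0.30 ± 0.10 (adjusted p = 0.223), and Mcm2, a subunit of the replicative helicase, at −0.21 ± 0.08 (adjusted p = 0.263). For this list the pairs disagreed in sign, with medians of 0.11, −0.25 and −0.16 for replicates 1, 2 and 3.

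**Figure D2:**
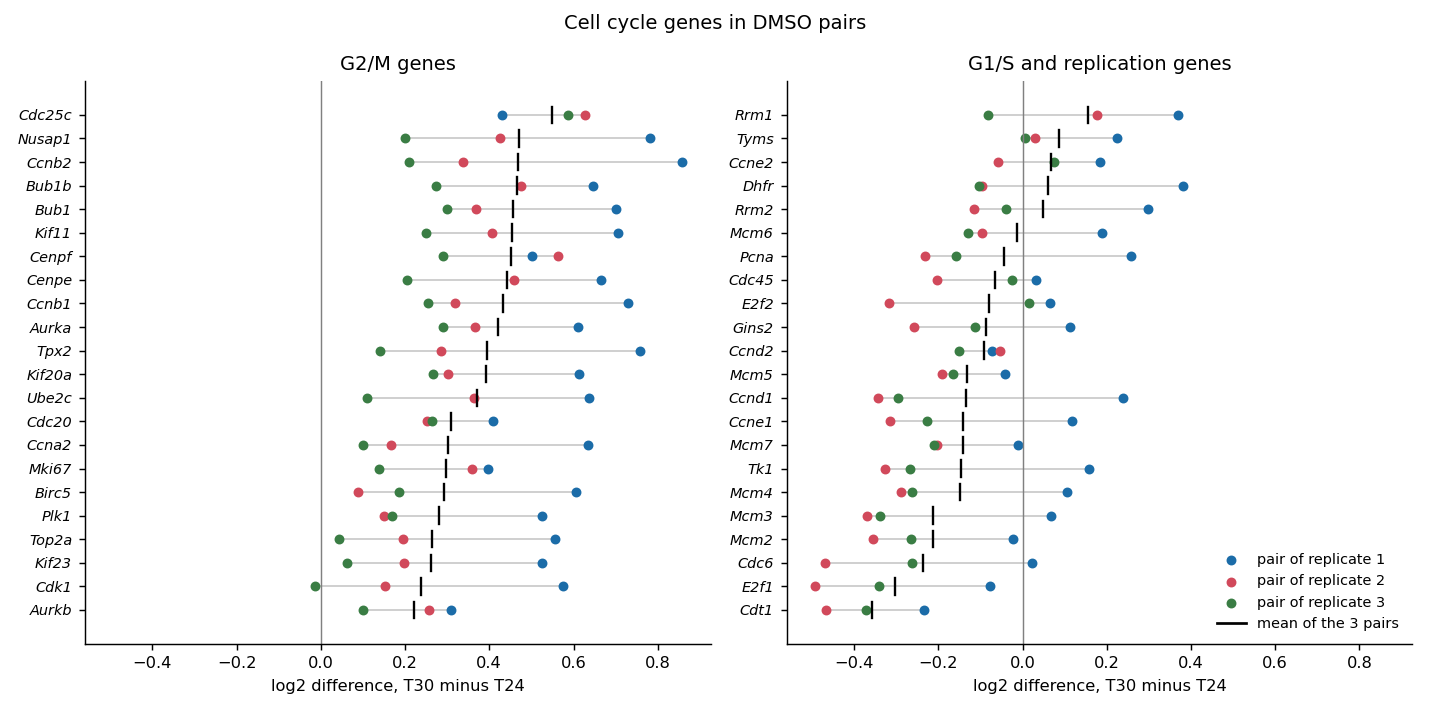
Log2 difference between T30 and T24 (horizontal axis) of 22 G2/M genes and 22 G1/S and replication genes, with 1 point per DMSO pair and a black bar at the mean of the pairs. Of the G2/M genes, 21 are higher in all 3 pairs, with the pair of replicate 1 mostly farthest to the right, and of the G1/S genes, 17 have a mean below 0.

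Promoters of mitotic genes typically carry CCAAT boxes close to the start, and the RefSeq windows of this list held them often. Of 17 G2/M genes matched in the table, 15 (88.2%) had CCAAT within 250 bases upstream, against 33.8% of all windows. The clock genes above had it in 12 of 16 (75.0%), counted over any of their starts. The CHR letters were in 7 of the 17 G2/M genes (41.2%) and in none of the 16 clock genes, against 16% of all windows. The stretches with both CCAAT boxes of Ccnb1 (cyclin B1), Aurka and Cenpf are shown with the boxes in capitals, as examples of the promoters of genes that were higher together.
Ccnb1, chr13:100786534-100786600, minus strand: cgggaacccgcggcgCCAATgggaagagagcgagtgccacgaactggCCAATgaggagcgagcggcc
Aurka, chr2:172370571-172370636, minus strand: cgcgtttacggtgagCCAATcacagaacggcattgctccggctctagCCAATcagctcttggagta
Cenpf, chr1:189688138-189688233, minus strand: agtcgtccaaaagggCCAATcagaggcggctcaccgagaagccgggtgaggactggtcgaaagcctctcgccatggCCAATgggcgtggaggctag

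Immediate early genes, which respond within minutes to growth factors and stress, were mostly lower at T30. Of 20 tested, 17 were lower and 3 higher, with a median of −0.38. Within pairs 13 were lower in all 3, against 21.4% of all genes. None passed the paired test and 3 passed in the 9-library fit (downward, 2.27% of all genes did). Egr1, a zinc finger factor induced by ERK signalling, had 2924, 3615 and 1295 at T24 and 1931, 1109 and 626.8 at T30, a log2 fold change of −1.16 ± 0.19 (adjusted p = 0.115). Fos, a subunit of AP-1, was at −1.31 ± 0.26 (adjusted p = 0.141), with 165.8, 218.8 and 116.7 at T24 and 107.2, 55.2 and 49.8 at T30. Its groups did not overlap, while those of Egr1 did. Myc, which drives growth, was at −0.47 ± 0.08 (adjusted p = 0.119) and Junb, another AP-1 subunit, at −0.32 ± 0.07 (adjusted p = 0.146). At T20, after 6 h of DMSO, Egr1 had 2402, 1223 and 717.6. These signals were near T30 in replicates 2 and 3 and about midway between T24 and T30 in replicate 1.

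Acute phase and inflammatory genes showed the same direction. Of 17 tested, 14 were lower and 3 higher, with a median of −0.33, 11 were lower in all 3 pairs (21.4% of all genes were) and 5 passed in the 9-library fit (2.27% of all genes did so downward). The neutrophil chemokine Cxcl2 had 177.4, 488.5 and 153.2 at T24 and 122.9, 216.9 and 66.2 at T30 (log2 fold change −1.004 ± 0.17, adjusted p = 0.119). Its groups overlapped because the replicates differed in level, but each pair was lower. The adhesion molecule Icam1 was at −0.46 ± 0.08 (adjusted p = 0.135), the chemokine Cxcl1 at −0.47 ± 0.10 (adjusted p = 0.146) and complement C3 at −0.36 ± 0.08 (adjusted p = 0.146). Lcn2, a secreted siderophore-binding protein, was at −0.54 ± 0.14 (adjusted p = 0.169). In the pemafibrate libraries 17 of 20 immediate early genes and 15 of 17 inflammatory genes were lower.

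Among 17 targets of the cytoskeleton-sensing factors SRF and YAP, 13 were lower and 4 higher (median −0.16), and the largest positive value, 1.27, was that of Acta2, which is also a stellate marker and reached the minimum level only through T30 (mean signal 6.2 at T24 and 17.4 at T30). Ccn2, the matricellular YAP target also called CTGF, had 15830, 15090 and 15690 at T24 and 15300, 8179 and 7030 at T30 (log2 fold change −0.74 ± 0.19, adjusted p = 0.167). The difference lay almost entirely in replicates 2 and 3. Tgfb1, the growth factor TGF-β1, was at −0.53 ± 0.09 (adjusted p = 0.119) and Thbs1, a matrix protein that activates it, at −0.36 ± 0.08 (adjusted p = 0.155). Over the 19 tested genes of the TGF-β and matrix list the split was even, with 9 higher and 10 lower.

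The cholesterol and protein-folding lists were slightly higher at T30 in nearly every member, while lists of fatty acid and glucose metabolism were more divided. Of the 22 genes of cholesterol synthesis and uptake, 21 were higher, with a median of 0.15, and 14 were higher in all 3 pairs (20.4% of all genes were). None passed the paired test and 5 passed in the 9-library fit (0.958% of all genes did so upward). Nsdhl, a sterol dehydrogenase, had 756.7, 1169 and 1443 at T24 and 931.6, 1603 and 2059 at T30 (log2 fold change 0.38 ± 0.08, adjusted p = 0.145). Mevalonate kinase (Mvk) was at 0.39 ± 0.09 (adjusted p = 0.154), and Idi1, the isopentenyl diphosphate isomerase, at 0.40 ± 0.10 (adjusted p = 0.163). The pairs were alike here, with list medians of 0.15, 0.20 and 0.15. In the fatty acid and triglyceride list 13 of 20 genes were higher, among them the desaturases Fads2 (0.31 ± 0.07, adjusted p = 0.149) and Scd1 (0.25 ± 0.07, adjusted p = 0.177). Mlxipl, which encodes the glucose-sensing factor ChREBP, was lower in each pair, from 771.7, 527.9 and 357.7 to 381.9, 303.7 and 244.6 (−0.83 ± 0.12, adjusted p = 0.102), and so was Dgat2, which makes triglycerides (−0.38 ± 0.08, adjusted p = 0.146).

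Of the 15 tested NRF2 targets, genes of the antioxidant response, 14 were above the minimum level in both groups. Those 14 were higher, with a median of 0.13, and 4 of them had no overlap between groups (5.51% of all genes did so upward). The remaining one, Nqo1, a quinone reductase, reached the minimum only through T30 (mean signal 7.0 and 13.7). Srxn1 (sulfiredoxin) had 1956, 1895 and 2051 at T24 and 2384, 2352 and 2567 at T30 (0.27 ± 0.07, adjusted p = 0.162), and the ferritin light chain Ftl1 was at 0.32 ± 0.09 (adjusted p = 0.191). The unfolded protein response list was higher for 13 of 15 genes, with a median of 0.16. The chaperones Pdia4 and Hsp90b1 were at 0.17 ± 0.06 and 0.20 ± 0.08 (adjusted p = 0.252 and 0.287), and the co-chaperones Dnajc3 and Dnajb9 at 0.22 and −0.01 (adjusted p = 0.263 and 0.984). The integrated stress response list had no direction, with 9 higher and 9 lower. Of 24 glycolysis and HIF genes 15 were higher, with a median of 0.14. The hypoxia-responsive Ndrg1 was at 0.41 ± 0.08 (adjusted p = 0.143) and Pdk1, a kinase that inhibits pyruvate dehydrogenase, at 0.39 ± 0.09 (adjusted p = 0.146).

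No gene of PPARα signalling passed the paired test in the vehicle cells. Of 16 tested core targets 10 were higher and 6 lower, with a median of 0.12. Acot1, an acyl-CoA thioesterase, had 2403, 2429 and 1528 at T24 and 2804, 3098 and 2065 at T30 (0.30 ± 0.07, adjusted p = 0.162). The groups overlapped and none of the 16 genes passed in the 9-library fit. The largest value of the list was that of Cd36, a fatty acid transporter, at −0.98 ± 0.45 (adjusted p = 0.324), with 33.1, 38.0 and 86.5 at T24 and 41.7, 17.6 and 19.8 at T30. Its pairs differed in sign (0.29, −1.11 and −2.12), and it passed without replicate 1 (adjusted p = 0.042). Creb3l3, a liver transcription factor, was at −0.47 ± 0.31 (adjusted p = 0.472). Of 18 genes of mitochondrial fatty acid oxidation 13 were higher, with a median of 0.07. Etfdh and Etfa, which pass electrons from acyl-CoA dehydrogenases to the respiratory chain, were at 0.22 ± 0.07 and 0.21 ± 0.07 (adjusted p = 0.224 and 0.234), without overlap. Ppargc1a, the coactivator PGC-1α of mitochondrial genes, had 419.8, 457.9 and 384.5 at T24 and 557.5, 741.6 and 650.7 at T30 (0.58 ± 0.11, adjusted p = 0.135), with all T30 libraries above all T24 libraries.

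Hepatocyte identity genes had no common direction, with 6 higher and 8 lower of 14 and a median of −0.05. The antitrypsin gene Serpina1a was lower in each pair, from 4736, 3850 and 3689 to 3932, 2836 and 2696 (−0.43 ± 0.07, adjusted p = 0.119), and the pioneer factor Foxa1 was higher, from 743.0, 559.7 and 506.0 to 990.3, 756.0 and 683.8 (0.39 ± 0.08, adjusted p = 0.146). Ribosomal protein genes were higher for 26 of 30, with a median of 0.09, and ribosome biogenesis genes lower for 14 of 16, with a median of −0.07. The ribosomal protein medians were 0.23, −0.002 and 0.02 in the 3 pairs. The mitochondrially encoded transcripts were higher for 11 of 13 genes, with pair medians of 0.28, 0.09 and −0.13. Glucocorticoid targets (6 higher, 8 lower of 14) and Krüppel-like factors (3 higher, 9 lower of 12) held no gene past the paired threshold. Klf11, a factor of the latter list, was at −0.43 ± 0.08 (adjusted p = 0.138) and was called in the 9-library fit. The remaining lists had no paired call either: clock kinases and ubiquitin ligases (7 higher, 6 lower), heat shock and cold-inducible genes (8 and 5), CDK inhibitors and p53 targets (10 and 4), gluconeogenesis and FoxO targets (4 and 8), amino acid and polyamine synthesis (7 and 6) and xenobiotic and bile acid genes (7 and 6). In the polyamine and xenobiotic lists, members above the minimum level in both groups split 7 higher and 5 lower each.

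**Figure D3:**
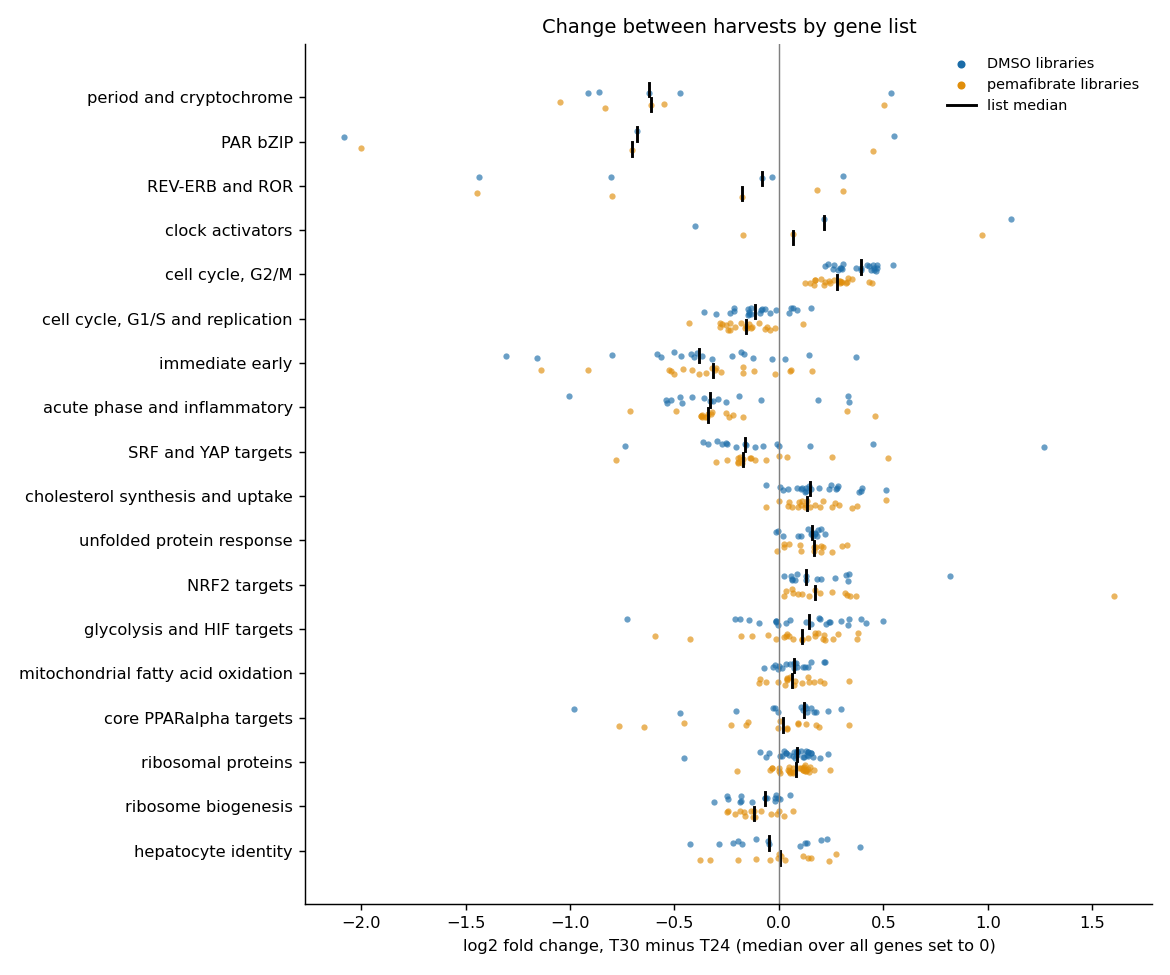
Log2 fold change between T30 and T24 (horizontal axis) for the members of 18 gene lists, with 1 point per gene, blue for the 6 DMSO libraries and orange for the 6 pemafibrate libraries, and black bars at list medians. The G2/M points all lie above 0 in both sets, and the immediate early and inflammatory lists centre at −0.38 and −0.33 in DMSO.

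The pemafibrate libraries of the same harvest times share no library with this comparison and were fitted alone. They come from the same pair of tables and carry the same replicate numbers. Libraries of the same number and harvest could deviate together. Ccn2, for example, had 15300, 8179 and 7030 at T30 with DMSO and 15020, 8288 and 6936 with pemafibrate. The 2 sets are therefore matched and not an independent repeat, and deviations of single replicates can recur in both. There limma called 15 of 13264 genes (0.113%), 4 higher and 11 lower. All 4 genes called in DMSO were among them, which is 100% of the DMSO calls and 26.7% of the pemafibrate calls. The change with pemafibrate was −1.44 ± 0.07 for Nr1d1, −0.80 ± 0.07 for Nr1d2, −2.00 ± 0.16 for Dbp and −0.74 ± 0.09 for Zfp57. Arntl (0.97 ± 0.12, adjusted p = 0.045), Tef (−0.70 ± 0.08, adjusted p = 0.036) and Bhlhe41 (−0.63 ± 0.07, adjusted p = 0.036) passed with pemafibrate and not with DMSO. Their differences between treatments were −0.14, −0.02 and 0.09, all with adjusted p = 1.00. Limma called no gene for a difference between the treatments, with 279 of 13272 at an unadjusted p under 0.05, where 664 would fall by chance. This fit did not pair DMSO with pemafibrate libraries of the same replicate number. With fewer small p-values than chance would give, the test was conservative, and a difference that was not called is not shown to be absent. Of the 15 pemafibrate calls, 14 had the same sign with DMSO. The exception was the predicted gene Gm20431, which had 60.2, 16.9 and 36.6 at T24 with pemafibrate and was listed at 0 in all 3 T30 libraries, against 14.8, 14.9 and 10.2 at T24 and 11.1, 46.6 and 15.1 at T30 with DMSO (difference between treatments not called, adjusted p = 0.402). The other pemafibrate calls included Anxa8, an annexin, at 0.63 ± 0.06 (0.62 ± 0.06 with DMSO), Sprr1a, a cornified envelope protein, at 0.71 ± 0.07 (0.70 ± 0.08), Adh7, a retinol-oxidizing alcohol dehydrogenase, at 0.97 ± 0.09 (0.58 ± 0.08), and complement C4b at −0.55 ± 0.07 (−0.64 ± 0.08).

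Across the 13154 genes tested in both sets, the fold changes correlated at a Spearman rho of 0.61 and a Pearson r of 0.46, which describes genes and not independent replicates. The sign was shared by 74.9% of all genes and by 424 of the 428 genes called in the 9-library DMSO fit.

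**Figure D4:**
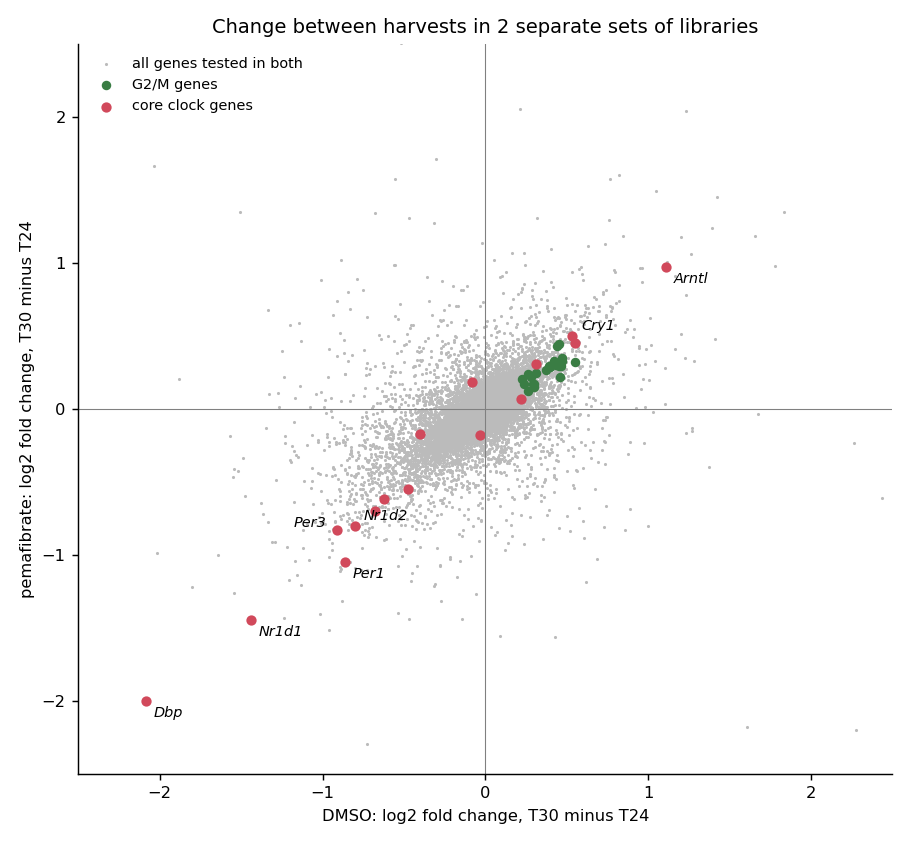
Log2 fold change between T30 and T24 in the DMSO libraries (horizontal axis) and in the pemafibrate libraries (vertical axis), 1 point per gene, with 22 genes outside the axis limits of 2.5. Dbp, Nr1d1 and Arntl lie near the diagonal and far from 0, and the G2/M genes form a group at positive values on both axes.

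GC content moved with the difference in 1 pair. Between T30 and T24 the log2 difference correlated across genes with transcript GC content at a Spearman rho of −0.31 in the pair of replicate 1, −0.10 in replicate 2 and −0.04 in replicate 3. In replicate 1 the median difference went from 0.16 for transcripts under 40% GC to −0.17 above 60% GC. In the 9-library fit the genes called higher had a median GC content of 45.7% and those called lower 54.5%, against 49.4% for all genes tested. With each pair's trend on GC removed, in the same paired fit, limma called 8 genes, 2 higher and 6 lower, among them all 4 of the uncorrected fit. The log2 fold changes were then −1.37 for Nr1d1, −1.99 for Dbp, −0.86 for Nr1d2 and −0.82 for Zfp57, and the medians of the G2/M, immediate early and inflammatory lists were 0.39, −0.33 and −0.33. With the correction, the 9-library fit called 377 genes, 133 higher (1% of those tested) and 244 lower (1.84%). Of the G2/M genes 12 were called higher there, and of the cholesterol genes 5. The part of GC content in these differences beyond this was not tested. Without the pair of replicate 1, the median of the G2/M list was 0.27, that of the immediate early list −0.53 and that of the NRF2 targets 0.18. The NRF2 median here was not limited to members above the minimum level in both groups.

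**Figure D5:**
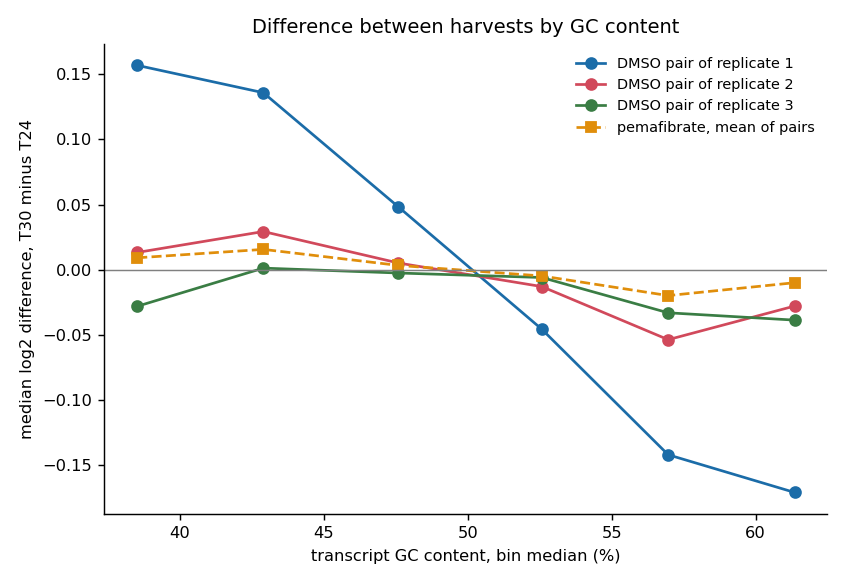
Median log2 difference between T30 and T24 (vertical axis) in 6 bins of transcript GC content (horizontal axis, bin medians in percent), with 1 solid line per DMSO pair and a dashed line for the mean of the pemafibrate pairs. The pair of replicate 1 slopes from 0.16 to −0.17 and the other lines stay within 0.06 of 0.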

How the data were processed

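Poly(A)-selected RNA was sequenced as dUTP-stranded libraries, per the labels' protocols. The authors deposited normalized signal per gene in 3 tables of 35551 Ensembl IDs, 1 per exposure window, per the file headers and names. The tables were normalized separately, which the names themselves do not state. The column names end as salmon output does. The counter, genome build and annotation behind them: not given in the sources used here. Any gene-specific length scaling in these tables was not tested and would not be removed by a constant. Of values up to 8 reads, 67.8% to 75.0% were whole within 0.05, so reads were not recovered and depth is unknown. Symbols matched 35181 IDs.

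The scale was log2(value + 1), on which low genes show too small a change. Fits took every gene averaging 10 or more and used limma 3.58.1 in R 4.3.3 (eBayes with variance trend, replicate number as block), with two-sided tests and Benjamini-Hochberg adjustment over all genes. The T30 libraries were first shifted by the median log2 difference. Same-numbered libraries deviated together from their group means (correlations of 0.20 to 0.33 across genes), so the numbers pair them. Between numbers the correlations were −0.22 to −0.06. Deviations from a group mean cancel out over the group, so these negative values follow from the positive ones and are no separate observation. The script was tested on simulated data. GC content is that of the longest GENCODE M21 transcript.

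Named genes are clock genes above the minimum level, calls with a mean of at least 50 and 1 sign in all pairs (the 15 largest each way), and, from every other list, at most 4 with the lowest p. Genes outside this rule are marker genes, Acta2, Cdk1, Ccnb1, Nqo1, Creb3l3, Dnajb9, the pemafibrate calls Anxa8, Sprr1a, Adh7, C4b and Gm20431, and the 11 genes under other observations, named after their values were seen. A further clock gene is not reported here. Members and lists were chosen with earlier results of these data known. Lists of clock kinases, heat shock, p53, FoxO, polyamine and xenobiotic genes held no paired call.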

Additional observations from a re-analysis of the deposited data

How the results depend on the processing

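Over 25 other settings, 132 of 135 named genes kept the sign of their log2 fold change. The exceptions were Rora without centring (0.00858), and Arntl2, Rora and Cirbp without replicate 1. Leaving out a replicate gave −0.919 to 0.125 for Arntl2, −0.0842 to 0.0609 for Rora and −0.363 to 0.0128 for Cirbp. Without replicate 1 their values were 0.125, 0.0608 and 0.0126 with 9 libraries and 0.125, 0.0607 and 0.0126 with 18. The paired DMSO count of 4 was 1 without the replicate block, with a pseudocount of 0.5, without centring, with upper-quartile rescaling or with trimmed mean centring, the remaining gene being Nr1d1, and 0 without the filter on low values, without the variance trend or with a minimum fold of 1.5. It stayed at 4 with a pseudocount of 5, a minimum mean of 50 or centring within each pair. It was 428 with 9 libraries and 1663 with 18, and 4 to 837 when a replicate was left out. For settings chosen after seeing the data it was 8 with GC correction and the replicate block, 377 with 9 libraries and GC correction, 1 to 738 with 9 libraries less a replicate and 26 to 1173 with 18 libraries less a replicate (1173, 26 and 607 without replicates 1, 2 and 3). The pemafibrate count of 15 was 5 without the replicate block, 0 without the variance trend and 6 to 424 without a replicate. The count of differences between treatments was 0 in every setting but for 1 gene without replicate 1 (0 to 1). With 3 pairs per group, small changes are not detectable, and a gene that did not pass is not shown to be unchanged.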

Other observations

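The 11 genes below belong to none of the lists, did not pass the paired test and were chosen after their values were seen. They are given as values only and stand for no pathway. Ugt2b35 and Ugt2b34, glucuronosyltransferases of 1 gene family, had 671.8, 167.4 and 215.3 and 4396, 1319 and 1478 at T24, and 1047, 631.3 and 552.4 and 5585, 3779 and 3259 at T30. Their log2 fold changes were 1.26 ± 0.22 and 0.96 ± 0.20 (limma adjusted p = 0.119 and 0.143). The glutathione transferase Gsta1 was at 1.11 ± 0.22 (adjusted p = 0.140), from 103.0, 19.9 and 123.4 to 166.3, 64.7 and 268.6. Akr1c14, a hydroxysteroid dehydrogenase, was at 0.80 ± 0.11 (adjusted p = 0.102), from 487.2, 351.4 and 449.9 to 747.7, 736.9 and 801.6, without overlap. At T20 Ugt2b35 had 696.2, 475.0 and 408.2, Gsta1 had 171.4, 97.8 and 424.0 and Akr1c14 had 575.3, 655.0 and 724.9, each above T24 in the same replicate number. Ugt2b34 had 4197, 3129 and 2430, above T24 in replicates 2 and 3 only. The division of reads between close paralogs of the Ugt2b and Gsta families is uncertain.

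Clk1 and Clk4, kinases of SR proteins, were at −0.46 ± 0.08 and −0.50 ± 0.08 (both adjusted p = 0.119), Ccnl1, cyclin L1, at −0.48 ± 0.07 (adjusted p = 0.102), Arglu1 at −0.57 ± 0.09 (adjusted p = 0.102) and Leng8 at −0.79 ± 0.12 (adjusted p = 0.107). Leng8 had 13100, 8800 and 7785 at T24 and 6079, 5281 and 5846 at T30. With pemafibrate they were at −0.37, −0.43, −0.29, −0.42 and −0.63 in that order. Etv4, an ETS factor, was at −0.96 ± 0.21 (adjusted p = 0.146) and had 935.7, 1232 and 847.5 at T24, 778.0, 431.0 and 428.4 at T30 and 778.4, 460.2 and 449.0 at T20, so that every T24 library (24 h of DMSO) lay above every T20 and T30 library (6 h). For Csf2, a cytokine (−0.96 ± 0.20, adjusted p = 0.145), the T24 values of 170.3, 234.2 and 230.6 were likewise above 124.9, 125.6 and 85.5 at T30 and 151.6, 119.5 and 87.5 at T20. Exposure length and harvest time cannot be told apart for these genes.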
